A study of Mus musculus with 24 samples.

Results

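*Wnt2* and the genes of the secreted Frizzled-related proteins, *Sfrp1*, *Sfrp2*, *Sfrp4*, *Sfrp5* and *Frzb* (also known as *Sfrp3*), were followed across conditional mutants of *Tbx1* and β-catenin in the anterior heart field (AHF) of mouse embryos. These 6 genes, of 19938 measured, were selected by name with their values in each mutant group against its own controls already known. Changes of the 6 genes are therefore given as a description, with standard errors but no test. All 6 were measured, each by 1 probe set, and low values were not filtered out.

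Affymetrix mouse Gene ST arrays were used for 3 experiments of 4 mutant and 4 control arrays, 24 arrays in all, from AHF tissue at E9.5 (19 to 21 somite pairs). *Tbx1 LOF* embryos (labelled Tbx1 KO) were *Mef2c-AHF-Cre*/+;*Tbx1* f/- or f/f, and *β-cat LOF* embryos (Bcat KO) were *Mef2c-AHF-Cre*/+;*β-catenin* f/f. Rescue embryos (Rescue KO) carried the *Tbx1 LOF* genotype and, in addition, 1 floxed allele of *β-catenin*. The methods describe controls without Cre, *Tbx1* f/+, *β-catenin* f/+ and *Tbx1* f/+;*β-catenin* f/+, whereas the labels name wild type and Cre-carrying heterozygous littermates, and which of these the control arrays hold is open. *Mef2c-AHF-Cre* recombines in AHF mesoderm and its derivatives, while the dissected pharyngeal arches also hold neural crest, endoderm and ectoderm, and each array was hybridized with RNA pooled from several embryos. In such bulk tissue, fewer cells of a type and less RNA per cell cannot be told apart.

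Wnt proteins are secreted ligands that bind Frizzled receptors and Lrp5 or Lrp6 co-receptors, and in the canonical branch this stabilizes β-catenin, which activates target genes with Tcf/Lef factors. *Wnt2* encodes a canonical ligand known in the mouse from the posterior second heart field (SHF) and the inflow of the heart. Secreted Frizzled-related proteins carry a Frizzled-like cysteine-rich domain without a membrane anchor and can bind Wnts outside the cell, mostly lowering and in some settings spreading Wnt signals.

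Promoter sequence is shown for *Wnt2* and *Sfrp5*, the pair of genes with the largest differences among the 6. Of the 6 genes, 4 had an entry in the RefSeq promoter table (GRCm38.p6), while *Sfrp1* and *Sfrp4* are named only. The 250 bases before the annotated start are given 5′ to 3′ on the strand of the gene, chr6:18030446-18030695 (minus strand) for *Wnt2* and chr19:42202253-42202502 (minus strand) for *Sfrp5*. Capitals mark a match to a GATA element (AGATAA or TGATAA, either strand):
Wnt2: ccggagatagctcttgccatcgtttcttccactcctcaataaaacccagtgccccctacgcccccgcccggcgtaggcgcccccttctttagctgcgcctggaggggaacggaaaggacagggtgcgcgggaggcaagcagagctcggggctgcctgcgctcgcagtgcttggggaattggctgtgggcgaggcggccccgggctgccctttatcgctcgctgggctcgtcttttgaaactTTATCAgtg
Sfrp5: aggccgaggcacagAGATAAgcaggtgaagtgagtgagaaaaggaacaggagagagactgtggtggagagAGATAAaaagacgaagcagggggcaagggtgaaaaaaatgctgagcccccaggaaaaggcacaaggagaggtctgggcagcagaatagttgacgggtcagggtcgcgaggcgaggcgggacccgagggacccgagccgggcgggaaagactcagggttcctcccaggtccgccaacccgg
*Wnt2* had 1 match, TGATAA on the opposite strand (read here as TTATCA) 9 to 4 bases before the start, and the annotated *Wnt2* gene extends past the upstream end of this window. *Sfrp5* had 2 matches, AGATAA at 236 to 231 and at 180 to 175 bases before the start. Such a match was present in 16.6% of 32851 windows of the same length in the table, and *Sfrp2* and *Frzb* had 0. Only the spellings AGATAA and TGATAA were searched for this element. The letters AGATAG, which lie in the windows of *Wnt2* and *Frzb*, were not counted, so the counts hold for those spellings alone. No match to a T-box element (GGTGTGA, in 3.33% of the windows) or to a Tcf/Lef element (CTTTGAT or CTTTGAA, in 7.48%) lay in the windows of these 4 genes. These are letters in a window, and binding was not measured.

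The targeted *Tbx1* changed by −0.64 on the log2 scale (SE 0.09, 4 arrays against 4; limma, adjusted p = 0.00626) in *Tbx1 LOF* and stood at −0.31 (SE 0.09; adjusted p = 1) in rescue, with every mutant array below every control array in both. *Ctnnb1*, which encodes β-catenin, was at −0.04, −0.03 and −0.05 (SE 0.06 each) in *Tbx1 LOF*, *β-cat LOF* and rescue. Its rescue arrays, at 13.11 to 13.14, all lay below their controls at 13.16 to 13.20, where 2.24% of all genes did so. How much of the probes for *Tbx1* and *Ctnnb1* covers the deleted exons is not given. *Isl1*, a defining factor of the second heart field, averaged 10.72, 10.85 and 10.82 in the *Tbx1*, *β-catenin* and rescue mutants, against 10.69, 10.69 and 10.85 in their controls, where no array had a median over all probe sets above 8.14. From the same anterior heart field list, *Fgf10* and *Eya1* were picked out after their values were seen, because they were lower without overlap. *Fgf10*, a growth factor gene, was at −0.39 in *Tbx1 LOF* and −0.47 in rescue (SE 0.11 each, limma, adjusted p = 0.398 and 1). *Eya1*, a transcriptional co-activator, was at −0.24 in *Tbx1 LOF* (SE 0.07, limma, adjusted p = 0.474). Other genes of the list went the other way. Of the 7 measured genes of that list, *Tbx1* included, 3 were positive and 4 negative in *Tbx1 LOF* (median −0.06). In *β-cat LOF* 4 were positive and 3 negative (median 0.06), and in rescue 2 were positive and 5 negative (median −0.05). All mutant arrays lay below all controls for 3 of the 7 in *Tbx1 LOF*, 0 in *β-cat LOF* and 2 in rescue. Of all genes, 0.973%, 0.787% and 2.24% did so. The counts of 3 and 2 include *Tbx1*, the targeted gene. Replicate 2 of the *β-cat LOF* controls stood apart, with a mean of 18 heart muscle genes at 2.30 above the mean of the 24 arrays, against at most 0.91 in any other array. Arrays numbered 1 and 2 also differed from those numbered 3 and 4 within genotypes, at an adjusted p under 0.05 for 3656 genes in the *Tbx1* experiment, 447 in the β-cat experiment and 0 in the rescue experiment. The methods mention batches, but do not assign arrays to them, so the numbers are used here only as the labels give them.

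*Wnt2* was higher in the AHF of *Tbx1 LOF* embryos than in their controls and lower, on average, in that of *β-cat LOF* embryos. In *Tbx1 LOF* arrays *Wnt2* read 11.19, 10.51, 10.60 and 10.45 on the log2 scale, against 10.12, 10.09, 9.69 and 9.75 in control arrays. All 4 mutant arrays lay above all 4 controls, and also above every other array of the series. The log2 fold change was 0.77 (SE 0.21, n = 4 per group), or 1.71-fold.

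*β-cat LOF* arrays read 10.19, 9.67, 9.21 and 9.31 for *Wnt2*, against 10.35, 10.41, 10.24 and 9.41 in their controls. These groups overlapped, since control replicate 4 lay below 2 of the mutant arrays, and the log2 fold change was −0.51 (SE 0.21). It was −0.74 without control replicate 4 and −0.41 without control replicate 2, the array with the high heart muscle genes, and −0.25 with arrays weighted by their quality in limma. In rescue arrays the readings were 9.69, 10.16, 10.22 and 10.05, against 9.69, 9.85, 9.78 and 9.93 in the controls. Here 3 of the 4 rescue arrays lay above all controls and replicate 1 did not, with a log2 fold change of 0.22 (SE 0.21).

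*Sfrp5* encodes a secreted Wnt inhibitor that in the mouse marks progenitors of the inflow tract and foregut endoderm, and of the 6 genes it had the largest change in *Tbx1 LOF*. The *Tbx1 LOF* arrays read 10.54, 9.97, 9.56 and 9.84, against 8.88, 9.72, 8.79 and 8.43 in the controls. Mutant replicate 3 fell below control replicate 2, so 3 of 4 mutant arrays lay above all controls, and the log2 fold change was 1.02 (SE 0.26, n = 4 per group), or 2.03-fold. Without that control it was 1.28.

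For *Sfrp5* in *β-cat LOF*, the mutant arrays read 9.14, 8.63, 8.50 and 8.37, against 8.86, 9.55, 9.29 and 8.32 in the controls. The groups overlapped, and the log2 fold change of −0.35 (SE 0.26) was −0.16 without control replicate 2, −0.57 without control replicate 4 and −0.12 with array weights. Rescue arrays read 8.83, 8.94, 9.28 and 8.83, against 8.45, 9.06, 8.67 and 8.61 in their controls. Only replicate 3 lay above all controls there, and the log2 fold change was 0.27 (SE 0.26).

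**Figure D1:**
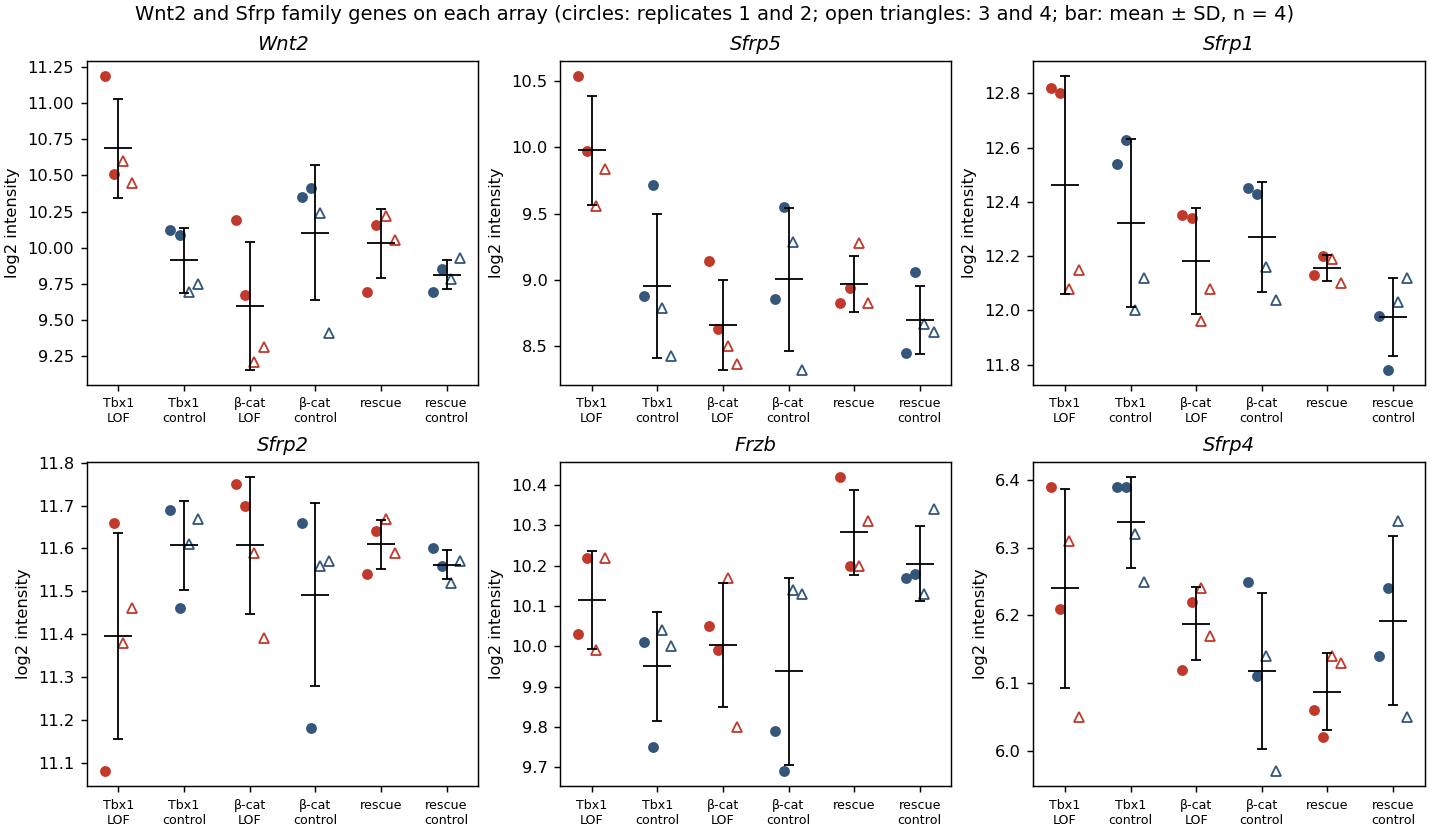
Log2 intensity (y axes) of the 6 genes on each array by group (x axes, mutant left of its control). Filled circles are replicates 1 and 2, open triangles replicates 3 and 4, and bars the mean ± SD of 4 arrays; *Wnt2* in *Tbx1 LOF* lies between 10.45 and 11.19, above all its controls, which reach 10.12.

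Set against each other, the changes of *Wnt2* and *Sfrp5* in *Tbx1 LOF* and *β-cat LOF* embryos differed by 1.29 (SE 0.30) and 1.37 (SE 0.36) on the log2 scale. The change in *Tbx1 LOF* exceeded that in rescue by 0.56 (SE 0.30) for *Wnt2* and by 0.76 (SE 0.36) for *Sfrp5*. Each experiment had controls of its own, and all arrays shared 1 estimate of the spread. Without *Tbx1 LOF* replicate 1, the highest array for both genes, the changes in *Tbx1 LOF* were 0.61 for *Wnt2* and 0.84 for *Sfrp5*. With that replicate left out the excess over rescue was 0.39 for *Wnt2* and 0.57 for *Sfrp5*.

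**Figure D2:**
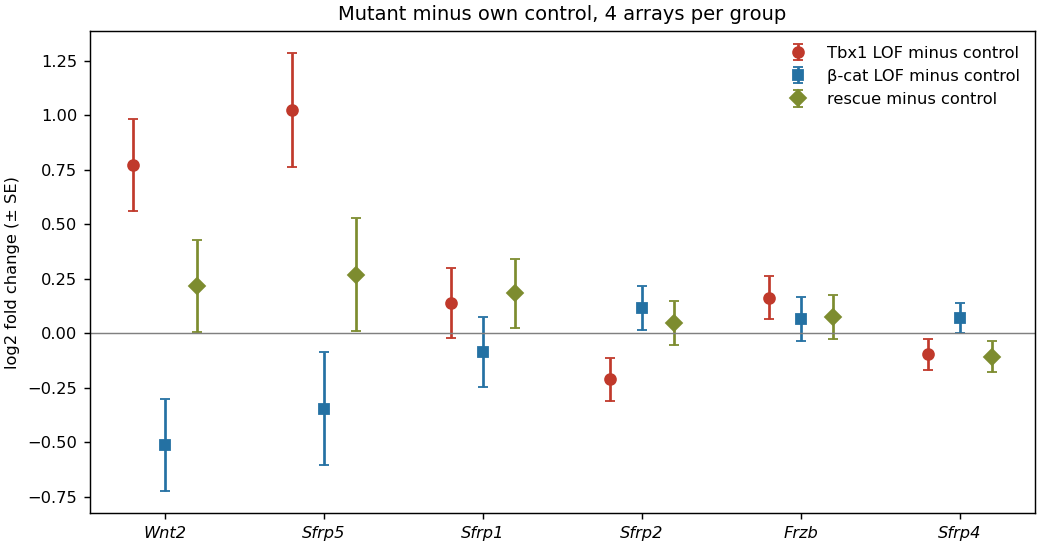
Log2 fold change of each gene (x axis) in *Tbx1 LOF*, *β-cat LOF* and rescue embryos against their own controls (y axis, bars ± SE, 4 arrays per group). *Wnt2* lies at 0.77, −0.51 and 0.22 and *Sfrp5* at 1.02, −0.35 and 0.27, while the other 4 genes lie between −0.21 and 0.18.

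*Sfrp1*, a secreted inhibitor widely made in embryonic mesenchyme, differed more between arrays of the same genotype than between mutants and controls in the *Tbx1* and β-cat experiments. *Tbx1 LOF* arrays read 12.82, 12.80, 12.08 and 12.15, against 12.54, 12.63, 12.00 and 12.12 in controls, and the log2 fold change was 0.14 (SE 0.16). In *β-cat LOF* the readings were 12.35, 12.34, 11.96 and 12.08, against 12.45, 12.43, 12.16 and 12.04 in controls, a log2 fold change of −0.08 (SE 0.16). In each of these 4 groups replicates 1 and 2 lay above replicates 3 and 4, by 0.70 in *Tbx1 LOF* and 0.53 in its controls and by 0.32 in *β-cat LOF* and 0.34 in its controls. The same difference was 0.02 in rescue and −0.19 in the rescue controls. Rescue arrays themselves read 12.13, 12.20, 12.19 and 12.10 for *Sfrp1*, against 11.98, 11.78, 12.03 and 12.12 in controls, a log2 fold change of 0.18 (SE 0.16).

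*Wnt2* and *Sfrp5* also read higher in replicates 1 and 2 than in replicates 3 and 4 in both groups of the *Tbx1* and β-cat experiments, by 0.32 to 0.67 for *Wnt2* and 0.40 to 0.69 for *Sfrp5*. Within either set of numbers, with 2 arrays per group, the difference between mutant and control had the same sign for both genes in each experiment. In *Tbx1 LOF* it was 0.74 for *Wnt2* in replicates 1 and 2 and 0.80 in the other replicates, and in *β-cat LOF* −0.45 and −0.57. *Sfrp5* gave 0.96 and 1.09 in *Tbx1 LOF*, and −0.32 and −0.37 in *β-cat LOF*. In rescue these differences were 0.16 and 0.28 for *Wnt2* and 0.13 and 0.41 for *Sfrp5*.

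**Figure D3:**
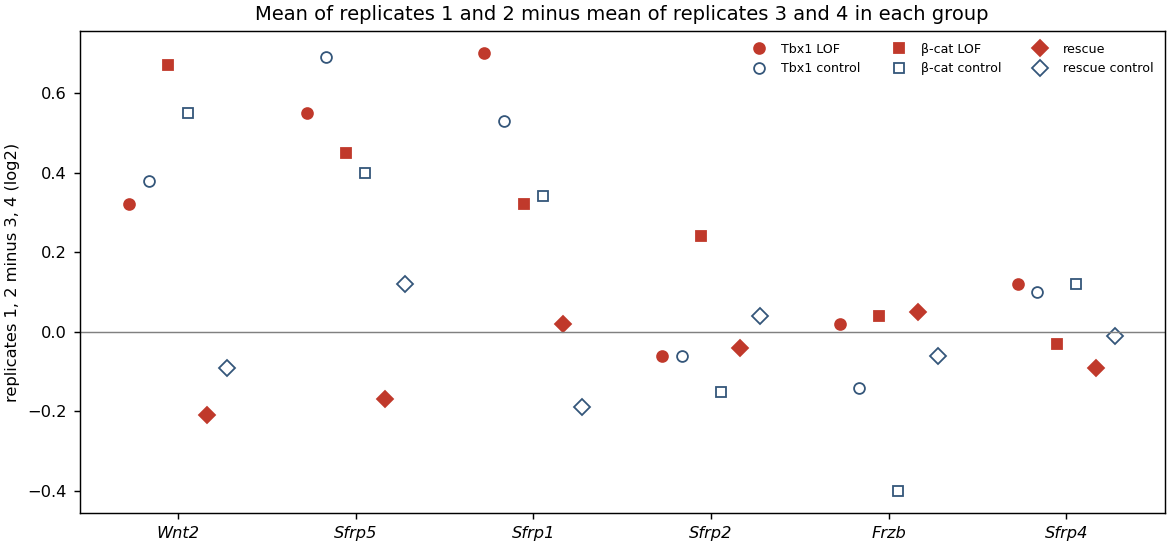
Mean of replicates 1 and 2 minus mean of replicates 3 and 4 (y axis, log2) for each gene (x axis) in each of the 6 groups (filled, mutants; open, controls). *Sfrp1* lies between 0.32 and 0.70 in the *Tbx1* and β-cat experiments and at 0.02 and −0.19 in the rescue experiment.

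*Sfrp2*, a secreted Wnt modulator of embryonic mesenchyme, ran opposite to *Sfrp5* in *Tbx1 LOF*. The mutant arrays read 11.08, 11.66, 11.38 and 11.46, against 11.69, 11.46, 11.61 and 11.67 in the controls, with a log2 fold change of −0.21 (SE 0.10). Without mutant replicate 1, the lowest, it was −0.11. In *β-cat LOF* the arrays ranged from 11.39 to 11.75, against 11.18 to 11.66 in controls (0.12, SE 0.10), and in rescue from 11.54 to 11.67, against 11.52 to 11.60 (0.05, SE 0.10).

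*Frzb*, first known as an antagonist of Wnt8 in the frog embryo, ranged from 9.99 to 10.22 in *Tbx1 LOF* arrays and from 9.75 to 10.04 in controls, with a log2 fold change of 0.16 (SE 0.10). It was 0.07 (SE 0.10) in *β-cat LOF* and 0.08 (SE 0.10) in rescue. The sign for *Sfrp2* and *Frzb* in *β-cat LOF* differed between the replicate numbers, with log2 differences of 0.31 and 0.28 in replicates 1 and 2 and of −0.07 and −0.15 in replicates 3 and 4. Without control replicate 2 the value for *Frzb* in *β-cat LOF* was −0.02. *Sfrp4*, known from adult endometrium and bone, ranged from 5.97 to 6.39 over all arrays, and its log2 fold changes were −0.10, 0.07 and −0.11 (SE 0.07 each) in *Tbx1 LOF*, *β-cat LOF* and rescue.

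Counted over the 6 genes, 1 had all mutant arrays above all controls in *Tbx1 LOF* (*Wnt2*) and 0 had them below, where 1.32% and 0.973% of all 19938 genes did. In *β-cat LOF* 0 of 6 did either way, against 2.06% above and 0.787% below over all genes, and in rescue 0 of 6, against 0.737% and 2.24%. The genes were chosen on these contrasts, so nothing is read from these counts. The median log2 fold change of the 6 was 0.15 in *Tbx1 LOF*, −0.01 in *β-cat LOF* and 0.13 in rescue, beside −0.01, 0.01 and −0.02 over all genes.

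Ordered by mean level, *Wnt2* stood at 10.69 ± 0.34 in *Tbx1 LOF*, 10.10 ± 0.47 in *β-cat* controls, 10.03 ± 0.24 in rescue, 9.91 ± 0.22 in *Tbx1* controls, 9.81 ± 0.11 in rescue controls and 9.59 ± 0.44 in *β-cat LOF* (SD, n = 4 each). The arrays of *Tbx1 LOF* were separate from the next group, and all other neighbours overlapped. *Sfrp5* came in the same order of groups, from 9.98 ± 0.41 in *Tbx1 LOF* to 8.66 ± 0.33 in *β-cat LOF*, with the lowest *Tbx1 LOF* array at 9.56 just above the highest *β-cat* control at 9.55 and overlap elsewhere. For *Sfrp1*, *Sfrp2*, *Sfrp4* and *Frzb* every pair of neighbouring groups overlapped. *Frzb* stood highest in rescue (10.28 ± 0.10) and rescue controls (10.21 ± 0.09) and lowest in *β-cat* controls (9.94 ± 0.23).

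By sign of median change, markers of heart muscle, posterior SHF and inflow, and liver, gut and mesothelium moved with *Wnt2* and *Sfrp5*. This was so although the dissection as described left out the heart tube. Markers of the neural tube ran the opposite way in *Tbx1 LOF* and *β-cat LOF*. In *Tbx1 LOF* all 18 heart muscle genes had positive log2 fold changes (median 0.77), and the mean of the list ranged from 0.26 to 0.60 in mutant arrays, against −0.67 to −0.11 in controls. In *β-cat LOF* all 18 were negative (median −1.02), with list means of −0.46 to 0.08, against 0.11 to 2.30 in controls. The value of 2.30 was that of control replicate 2, which enlarges this median, and the other controls were at 0.91, 0.31 and 0.11. In rescue 16 of 18 were positive (median 0.22), with list means of −0.53 to −0.01, against −0.82 to 0.06. At an adjusted p under 0.05 limma called 0 of the 18 in each comparison, where 0.0301% of all genes were called in *Tbx1 LOF*, 0% in *β-cat LOF* and 0% in rescue. At an unadjusted p under 0.05, 14 were higher in *Tbx1 LOF*, 17 lower in *β-cat LOF* and 0 either way in rescue. Of all genes, at that threshold, *Tbx1 LOF* had 2.17% higher and 1.95% lower, *β-cat LOF* had 2.83% higher and 2.88% lower, and rescue had 0.371% higher and 0.898% lower. For the difference between the changes in *Tbx1 LOF* and *β-cat LOF*, 17 of 18 were higher at an unadjusted p under 0.05 and 1 was called at an adjusted p under 0.05, *Myl4*, an atrial myosin light chain (1.05, SE 0.20; limma, adjusted p = 0.0439), where 3.41% of all genes were higher and 3.04% lower at the unadjusted threshold. For that between *Tbx1 LOF* and rescue 0 of 18 passed either threshold, where 0.943% and 0.767% of all genes passed the unadjusted one.

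Of 11 measured genes of liver, gut and mesothelium, 11 were positive in *Tbx1 LOF* (median 0.37), 11 negative in *β-cat LOF* (median −0.22) and 7 positive in rescue (median 0.04), with 0 called by limma in each. At an unadjusted p under 0.05, whose shares over all genes are given above, 6 were higher in *Tbx1 LOF*, 1 was lower in *β-cat LOF* and 0 passed in rescue. The list means ranged from 0.02 to 0.79 in *Tbx1 LOF*, against −0.24 to 0.28 in controls, from −0.21 to 0.12 in *β-cat LOF*, against −0.31 to 0.78, and from −0.36 to −0.03 in rescue, against −0.36 to −0.16. The value of 0.78 was that of *β-cat* control replicate 2, the array with the high heart muscle genes. The other *β-cat* controls were at 0.13, 0.12 and −0.31, within or near the range of the mutants. *Ttr*, a plasma carrier made by liver and visceral endoderm, had log2 fold changes of 1.34 (SE 0.33), −0.63 (SE 0.33) and 0.16 (SE 0.33) in *Tbx1 LOF*, *β-cat LOF* and rescue, and *Wt1*, a mesothelial transcription factor, had 0.46, −0.23 and 0.08 (SE 0.14 each).

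Of 9 measured genes of the posterior SHF and inflow, 7 were positive in *Tbx1 LOF* (median 0.30), 8 negative in *β-cat LOF* (median −0.36) and 8 positive in rescue (median 0.25), again with 0 called by limma. At an unadjusted p under 0.05, 5 were higher in *Tbx1 LOF*, 2 lower in *β-cat LOF* and 1 higher in rescue, to be read against the same shares. The list means overlapped in each experiment, at 0.09 to 0.67 in *Tbx1 LOF*, against −0.16 to 0.34 in controls, at −0.66 to 0.08 in *β-cat LOF*, against −0.34 to 0.29, and at −0.29 to 0.18 in rescue, against −0.29 to −0.04. The genes with the largest values in *Tbx1 LOF*, picked out after they were seen, were *Hcn4* and *Tbx5*. *Hcn4*, a pacemaker channel of the sinus venosus, had 0.70, −0.43 and 0.31 (SE 0.22 each), and *Tbx5*, a T-box factor of the inflow and left ventricle, 0.58, −0.81 and 0.34 (SE 0.25 each). *Aldh1a2*, which makes retinoic acid and was also picked out, had −0.01, −0.46 and 0.25 (SE 0.33 each). *Tbx1 LOF* replicate 1, the highest array for *Wnt2* and *Sfrp5*, was also the highest array of the series for this list (0.67) and for the liver, gut and mesothelium list (0.79). Rescue replicate 1, low for *Wnt2*, was the lowest rescue array for both lists (−0.29 and −0.36). For heart muscle genes rescue replicate 3 was the lowest rescue array (−0.53). That array was the highest of the rescue arrays for *Wnt2* (10.22) and *Sfrp5* (9.28).

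Of 8 neural tube genes, 8 were negative in *Tbx1 LOF* (median −0.28), 8 positive in *β-cat LOF* (median 0.25) and 7 positive in rescue (median 0.24). At an adjusted p under 0.05 limma called 0 in each. At an unadjusted p under 0.05, 3 were lower in *Tbx1 LOF*, where 1.95% of all genes were lower. At that threshold 3 were higher in *β-cat LOF*, where 2.83% of all genes were higher, and 0 passed either way in rescue. The list means ranged from −0.44 to 0.55 in *Tbx1 LOF*, against 0.10 to 0.46 in controls, and from −0.04 to 0.11 in rescue, against −0.28 to 0.01, so these groups overlapped. In *β-cat LOF* they ranged from −0.05 to 0.20, all above the controls at −0.33 to −0.19. *Tbx1 LOF* replicate 1, highest for *Wnt2* and *Sfrp5*, was the lowest array of the series for these genes (−0.44). *Tbx1 LOF* replicate 2 went the other way, as the highest array of the series for them (0.55). It read 10.51 for *Wnt2* and 9.97 for *Sfrp5*, both above all their controls. The part of all these tissues in the values of *Wnt2* and *Sfrp5* was not tested.

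**Figure D4:**
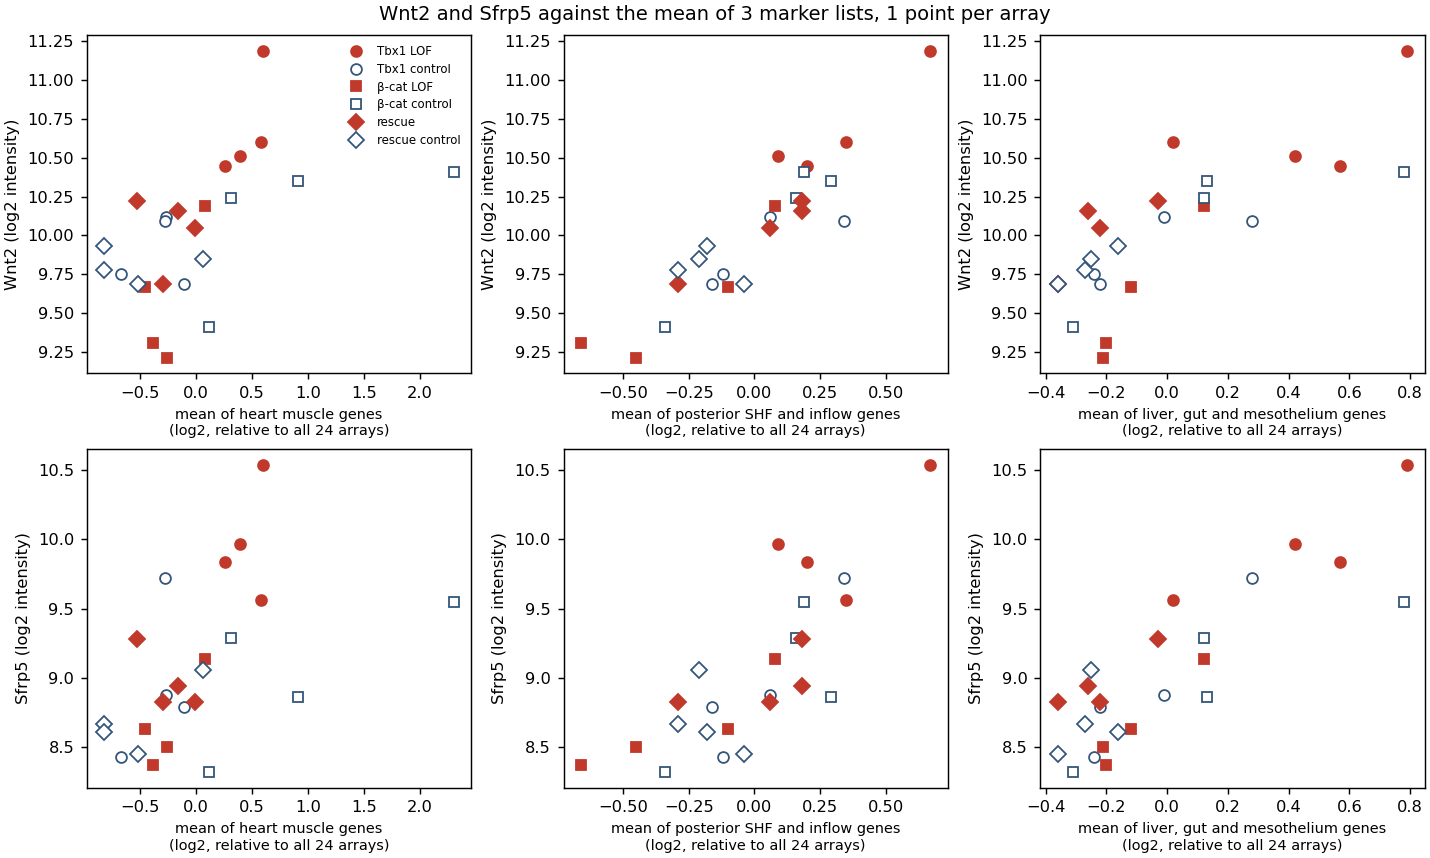
Log2 intensity of *Wnt2* (upper y axes) and *Sfrp5* (lower y axes) against the mean of 3 marker lists relative to all 24 arrays (x axes, log2), 1 point per array (filled, mutants; open, controls). The *β-cat* control at 2.30 in heart muscle genes is replicate 2, and *Tbx1 LOF* replicate 1 lies at the upper right of the other lists, at 0.67 and 0.79.

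Across the 24 arrays, after the mean of each experiment was subtracted, the genes closest to *Wnt2* were *Gata4* (Pearson r = 0.93), *Gata6* (0.92), *Flrt3* (0.91) and *Tll1* (0.91). *Gata4* and *Gata6* encode zinc finger factors of heart and foregut, *Flrt3* a membrane protein of cell adhesion and *Tll1* a metalloprotease needed for septation of the mouse heart. Closest to *Sfrp5* were *Wt1* (0.91), *Serpinf2* (0.91), *Ttr* (0.91) and *Ambp* (0.90), of which *Serpinf2* and *Ambp* encode plasma protease inhibitors of the liver. These arrays share the genotypes and the replicate numbers, so the correlations are descriptions over 24 arrays. Within the rescue experiment they were 0.66 to 0.89 for the genes closest to *Wnt2* and 0.55 to 0.69 for those closest to *Sfrp5*.

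*Sfrp1* was closest to *Cat* (0.92), *Aplp2* (0.90), *Pdgfra* (0.90) and *Rragd* (0.89). For *Cat*, which encodes catalase, r was 0.97 and 0.96 within the *Tbx1* and β-cat experiments, where the replicate numbers divide the arrays, and 0.38 within rescue, and for *Pdgfra*, a growth factor receptor of mesenchyme, it was 0.94, 0.88 and 0.85. *Sfrp2* was closest to *Lrig3* (0.84), *Sall2* (0.82), *Zswim5* (0.82) and *Crabp2* (0.80), the last a retinoic acid binding protein. *Frzb* and *Sfrp4* had no gene above 0.81 and 0.78, the values for *Etfbkmt* and *Olfr1065*. Among the 6 genes themselves, r was 0.85 between *Wnt2* and *Sfrp5*, 0.61 between *Wnt2* and *Sfrp1*, 0.58 between *Sfrp1* and *Sfrp5* and −0.52 between *Sfrp2* and *Sfrp5*, over the same 24 arrays.

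None of the other pathway genes measured passed the adjusted test. Of 64 genes in 4 lists (other Wnt ligands, receptors and co-receptors, other secreted or membrane regulators, and canonical targets) 63 were measured. At an adjusted p under 0.05 limma called 0 of 63 in *Tbx1 LOF*, *β-cat LOF* and rescue. It also called 0 of 63 for the difference between *Tbx1 LOF* and *β-cat LOF*, where 0.0502% of all genes were called, and 0 of 63 for that between *Tbx1 LOF* and rescue, where 0% were. At an unadjusted p under 0.05, 3 of 63 were higher and 2 lower for the first of these differences, and 2 higher and 0 lower for the second. Of all genes, 3.41% were higher and 3.04% lower for the first, and 0.943% higher and 0.767% lower for the second. At an unadjusted p under 0.05 with a fold change over 1.5, as in plots of the study, 0 of 63 passed in each experiment, where 0.326%, 0.451% and 0.01% of all genes did in *Tbx1 LOF*, *β-cat LOF* and rescue. At an unadjusted p under 0.05 alone, 3 were higher and 1 lower in *Tbx1 LOF*, 1 higher and 2 lower in *β-cat LOF*, and 0 either way in rescue, beside the shares of all genes from 0.371% to 2.88% given above for these 3 experiments. These p-values rest on the spread between arrays of the same group, pooled over the 6 groups. That spread holds differences between pools of embryos together with those between the replicate numbers, which the fit did not separate.

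Among 18 other Wnt ligands the median log2 fold change was 0.03 in *Tbx1 LOF*, 0.08 in *β-cat LOF* and −0.02 in rescue. *Wnt5a*, a noncanonical ligand of mesenchyme, read 10.41, 10.50, 10.61 and 10.60 in *Tbx1 LOF*, against 10.83, 10.64, 10.76 and 10.70 in controls. All its mutant arrays lay below all controls, as for no other of the 63 pathway genes. Of all genes, 0.973% did so in *Tbx1 LOF*, so nothing is read from this count. The log2 fold change of −0.20 (SE 0.08) did not pass (limma, adjusted p = 0.901). *Wnt2b*, the closest relative of *Wnt2*, was picked out after its values were seen. It read 9.24, 8.77, 9.39 and 9.20 in *Tbx1 LOF*, against 8.90, 8.88, 8.75 and 8.74 in controls (0.33, SE 0.15; limma, adjusted p = 1), and the difference between its changes in *Tbx1 LOF* and *β-cat LOF* was 0.63 (SE 0.22; limma, adjusted p = 0.388).

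The 15 receptors and co-receptors had medians of −0.01, 0.04 and −0.01 in *Tbx1 LOF*, *β-cat LOF* and rescue, and their log2 fold changes all lay between −0.12 and 0.13. The 19 other regulators had medians of 0.03, 0.01 and −0.01. *Porcn*, the acyltransferase that lets Wnts be secreted, read 8.87, 8.97, 8.92 and 8.93 in rescue, all above the controls at 8.82, 8.76, 8.79 and 8.86, with a log2 fold change of 0.11 that did not pass (limma, adjusted p = 1). Of all genes, 0.737% had all rescue arrays above all controls. The largest values in the list, picked out after they were seen, were those of *Dkk2* in *Tbx1 LOF* (0.36, SE 0.16; limma, adjusted p = 1) and *Dkk3* in *β-cat LOF* (−0.39, SE 0.16; limma, adjusted p = 0.845), both of the Dickkopf family of secreted Wnt modulators. *Dkk3* read 9.35 in *β-cat* control replicate 2 and 8.23 to 8.36 in the other controls, against 8.01 to 8.26 in *β-cat LOF*.

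The 11 measured canonical targets, among them the feedback inhibitor *Axin2* and the factor *Lef1*, had medians of −0.05 in *Tbx1 LOF*, −0.02 in *β-cat LOF* and 0.02 in rescue, and ranged from −0.19 to 0.13 in *Tbx1 LOF*, from −0.14 to 0.11 in *β-cat LOF* and from −0.15 to 0.08 in rescue. The mean of the list lay between −0.05 and 0.07 in *Tbx1 LOF*, against −0.01 to 0.10 in controls, and between −0.04 and 0.01 in *β-cat LOF*, against −0.07 to 0.03 in controls.

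**Figure D5:**
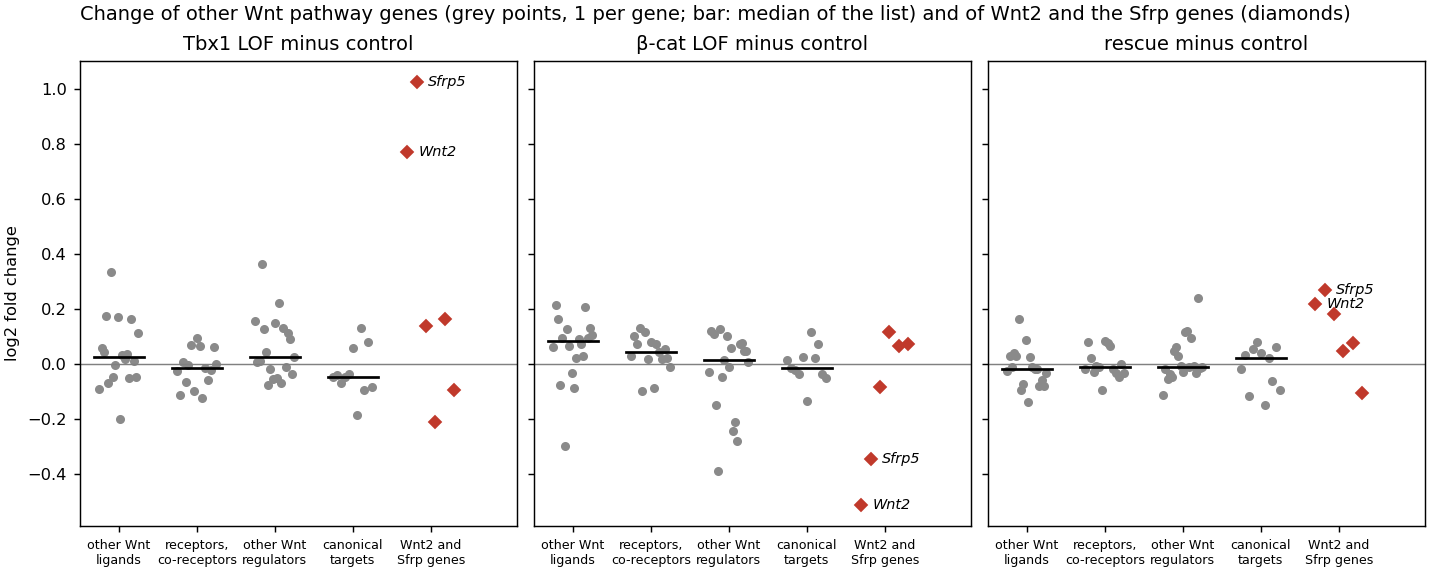
Log2 fold change (y axes) of each measured pathway gene by list (x axes; grey points, with a bar at the list's median) and of *Wnt2* and the 5 Sfrp genes (diamonds) in the 3 experiments. The 63 other genes lie between −0.20 and 0.36 in *Tbx1 LOF*, where *Wnt2* lies at 0.77 and *Sfrp5* at 1.02.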

How the data were processed

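The deposited log2 values of 24 arrays were made by the authors from the array intensities with RMA in the oligo package (background correction, quantile normalization and gene-level summary; oligo version not given in the sources used here). In the methods, ComBat and a batch block follow. Neither was repeated, since arrays are not assigned to batches and the values may or may not hold ComBat.

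Probe sets with 1 gene symbol in the platform annotation were kept (21789, while 1621 with several and 12146 with none were left out) and averaged per gene, giving 19938 genes, of which 19856 matched the reference gene table by identifier. No values were filtered. Array medians ran from 8.00 to 8.14, and precision is limited by the number of arrays. One limma fit (limma 3.58.1 in R 4.3.3) with 6 group means gave each mutant minus its own control and the differences between these changes, with Benjamini-Hochberg adjustment over all genes. It was tested on simulated data. Python 3.11.15 with matplotlib 3.10.9 made the figures.

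The 6 genes and all gene lists were chosen with earlier results of these data known. Named genes are the 6, pathway genes at an adjusted p under 0.05 or, up to 4 each way per comparison, those with the largest change among genes whose mutant arrays lay beyond all controls, *Tbx1*, *Ctnnb1*, and the 4 genes closest to each of the 6 by Pearson r. Any other gene named, *Isl1*, *Axin2* and *Lef1* included, was chosen after values were seen. Some genes of the lists were not analysed here. Other marker lists (anterior heart field, neural crest, pharyngeal endoderm, surface ectoderm, endothelium and erythroid cells) had median log2 fold changes of −0.11 to 0.23 in *Tbx1 LOF*, −0.16 to 0.10 in *β-cat LOF* and −0.08 to 0.02 in rescue. Neural crest and endothelium were looked at further after their values were seen. Of 8 neural crest genes, 7 were negative in *Tbx1 LOF* and 7 positive in *β-cat LOF*. Their list means overlapped only in *β-cat LOF*, and ran from −0.21 to −0.10 in *Tbx1 LOF*, against −0.09 to 0.06 in controls. All 7 endothelium genes were negative in *β-cat LOF*, 5 at an unadjusted p under 0.05 in limma, where 2.88% of all genes were lower.

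Mutant and control arrays carry the same replicate numbers. Deviations of same-numbered arrays from their group means correlated by 0.157 to 0.494 in the *Tbx1* experiment, although only 1 of 4 correlated best with its own number. The main fit used no pairing, and the replicate block was an alternative only. The β-cat and the rescue experiment each had pairs at or under 0.1. Alternatives were a replicate block, array weights, trended and robust moderation, separate fits, median centring, repeated quantile normalization, the brightest probe set, a filter on the lowest 25% of genes, single arrays left out and single sets of replicate numbers.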

Additional observations from a re-analysis of the deposited data

Results flagged for a closer look

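In 84 groups of 4 arrays (the 6 genes and 8 pathway genes in 6 groups each, the 8 being *Wnt5a*, *Porcn* and those at an unadjusted p under 0.05 in an experiment), 5 held an array set apart from the other 3 by a gap past Dixon's critical value, where chance gives about 5%. *Frzb* read 9.75 in *Tbx1* control replicate 2, against 10.00 to 10.04 in the other 3. *Dkk3* read 9.35 in *β-cat* control replicate 2, against 8.23 to 8.36, and in that array heart muscle genes were highest too. *Rspo2*, which encodes an R-spondin that enhances Wnt signals, had such a low array in *Tbx1 LOF* (replicate 4 at 7.88, others 8.16 to 8.21), in *β-cat LOF* (replicate 4 at 8.05, others 8.33 to 8.37) and in rescue (replicate 1 at 8.19, others 8.24 to 8.25). *Wnt8a*, a canonical ligand of early embryos, lay above the mean of its controls in every *Tbx1 LOF* array and below it in every rescue array. The difference of the changes was 0.24 on the log2 scale (SE 0.12; limma, adjusted p = 1), so it did not pass the test of the difference.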

How the results depend on the processing

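Of 619 values of the 6 genes under other settings, 613 stayed within the SD between replicates. *Wnt2* and *Sfrp5* kept their sign in each experiment under all settings. Some settings could not move a log2 fold change, so the count does not measure robustness. The brightest probe set was the only one for each gene. Trended or robust moderation and the replicate block leave the log2 fold changes as they were. In replicates 1 and 2 only, *Sfrp2* and *Frzb* in *β-cat LOF* moved to 0.31 and 0.28 and 1 pathway gene passed the unadjusted p and fold threshold there; in replicates 3 and 4 only they moved to −0.07 and −0.15. Array weights brought *Wnt2* and *Sfrp5* in *β-cat LOF* to −0.25 and −0.12, and in *Tbx1 LOF* to 0.92 and 1.34, and *Sfrp1* in *β-cat LOF* to 0.04; the cause was not tested. With the replicate block, *Wnt2* was at 0.77 (SE 0.14), −0.51 and 0.22 and *Sfrp5* at 1.02 (SE 0.22), −0.35 and 0.27 in *Tbx1 LOF*, *β-cat LOF* and rescue, and it changed no call: 0 pathway genes passed, as with every array left out. With single arrays left out, *Wnt2* ranged from 0.61 to 0.85, from −0.74 to −0.38 and from 0.15 to 0.33 in these experiments, *Sfrp5* from 0.84 to 1.28, from −0.57 to −0.16 and from 0.17 to 0.39, *Sfrp1* from 0.02 to 0.27, from −0.16 to −0.01 and from 0.12 to 0.23, *Sfrp2* from −0.30 to −0.11, from 0.01 to 0.19 and from 0.03 to 0.07, *Frzb* from 0.10 to 0.21, from −0.02 to 0.13 and from 0.03 to 0.12, and *Sfrp4* from −0.15 to −0.03, from 0.02 to 0.11 and from −0.15 to −0.06. *Sfrp4* lay among the lowest 25% of genes and had no value under that filter.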
